A study of Mus musculus with 6 samples.

Results

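Receptors shared between natural killer (NK) cells and T cells were described on mouse T cell arrays, as the NKG2 lectin-like receptors Klrk1, Klrd1, Klrc1 and Klre1, the related lectin Klrg1, the adaptor Hcst, and the receptors Crtam, Cd160, Cd226 and Ncr1. The members were the probe sets annotated with one of these 10 symbols and no other, which gave 14 probe sets of the 34945 probe sets with a single symbol, for 10 of 18193 genes. Of them, 8 genes had 1 probe set each, Klrc1 had 2 and Cd160 had 4.

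Gene expression was measured on 6 arrays, 3 of CD8aa Tregs (titled 2D11, replicates 1, 2 and 4) and 3 of OT-1 CD8aa+TCRab+ T cells (titled OvacD8, replicates 1, 2 and 3). The CD8aa Tregs carry CD8 as a homodimer of its alpha chain and recognise the class Ib MHC molecule Qa-1, as the title of the series has it, while OT-1 cells bear a transgenic T cell receptor against ovalbumin. Both kinds of cell were kept in culture with IL-2, their own antigen and antigen-presenting cells, and the labels name every sample a T cell clone, so each group may be repeats of 1 clone. Strain, age and sex are not given in the sources used here, nor whether replicates were separate cultures, so each p-value reflects the spread over these arrays alone, which may be technical. In bulk RNA, fewer cells of a type and less RNA per cell cannot be told apart.

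NK receptors are germline-encoded and set the threshold at which a cytotoxic lymphocyte responds to stressed, infected or healthy cells. Klrk1 (NKG2D) is an activating receptor that recognises stress-induced relatives of class I MHC and signals through the small membrane adaptor Hcst (DAP10), while Klrd1 (CD94) pairs with NKG2 chains such as the inhibitory Klrc1 (NKG2A) to read Qa-1 on other cells. On CD8 T cells several of these receptors are acquired or raised by activation, by IL-2 or IL-15, and with effector differentiation.

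Values are RMA log2 values that had been centred, so that the median of each probe set over the 6 arrays is 0. Only differences between arrays can be read from them, not whether a gene was bright or near background, and where the groups are apart the centring places them on opposite sides of 0. A probe set passed at an adjusted p under 0.05 (limma, Benjamini-Hochberg over 45037 probe sets), and a difference is the CD8aa Treg mean less the OT-1 mean, given ± its standard error from that fit. RMA compresses differences that start or end near background.

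The OT-1 arrays were not alike. Over probe sets spanning at least 0.1, OT-1 replicates 2 and 3 correlated at r = 0.855 and OT-1 replicate 1 with them at 0.298 and 0.353, against 0.614 to 0.671 among the CD8aa Treg arrays. The poly-A spike-in controls, bacterial RNAs added to follow labelling, averaged -0.094 to 0.73 on the CD8aa Treg arrays, 0.44 on OT-1 replicate 1, and -1.41 and -2.13 on OT-1 replicates 2 and 3. Among 8 conventional CD8 T cell probe sets, Cd8b1, which encodes CD8 beta, stood lower in the CD8aa Treg arrays, by -2.36 (log2). The OT-1 cells, named CD8aa+ above, thus had the higher Cd8b1 values, though centred values do not show whether either group was at background. Cd3e stood at 0.083 without passing. The probe sets of Cd8a disagreed: 1 was higher by 0.85, another stood at -2.40 with the groups apart (adjusted p = 0.0636), and the rest stood at 0.25, 0.013 and 0.0020. No probe set passed on the lists for B cells, CD4 T cells, macrophages and monocytes, mast cells and basophils, or erythroid cells; the members with the widest span over the arrays were Ms4a1, Zbtb7b, Lyz2, Cpa3 and Hba-a1, with differences of 0.040, 0.22, 0.88, -3.001 and -0.037. On the macrophage and monocyte list, a Csf1r probe set at -0.97 (adjusted p = 0.762) and Cd14 at -0.81, with the groups apart (adjusted p = 0.0734), ran opposite to Lyz2. On the dendritic cell list Itgax, an integrin gene that activated CD8 T cells also express, was lower by -5.07.

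The receptors were lower in CD8aa Tregs wherever they passed. Of the 14 probe sets, 7 passed as lower and 0 as higher, while 4.06% of all probe sets tested passed, 2.05% as lower and 2.00% as higher. The members were chosen with earlier results of these data known, so the shares given here are a description and not a test. The 7 belonged to 6 of the 10 genes, Klrk1, Klrd1, Klre1, Hcst, Crtam and Cd160. At an unadjusted p under 0.05, 8 were lower, against 6.80% of all, and 2 higher, against 9.24%, both of the latter from Klrc1. Of the 14, 5 passed as lower by at least 2-fold, against 1.31%, and among the 12 that spanned at least 0.1 over the arrays 7 passed as lower, against 3.13%. The median difference of the 14 was -0.48, beside 0.0076 over all probe sets. The groups did not overlap in 8 probe sets with CD8aa Tregs below, against 8.54% of all probe sets, and in 2 with CD8aa Tregs above, against 11.7%. Without OT-1 replicate 1, 6 of the 14 passed as lower, against 5.80% of all, and 0 as higher, against 4.80%. With a second term in the fit for the arrays of high and low spike-in signal, 6 passed as lower, against 3.42%. With the mean of the probe sets of each gene as its value, 6 of 10 genes were lower and 0 higher, against 3.37% and 3.30% of all genes.

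**Figure D1:**
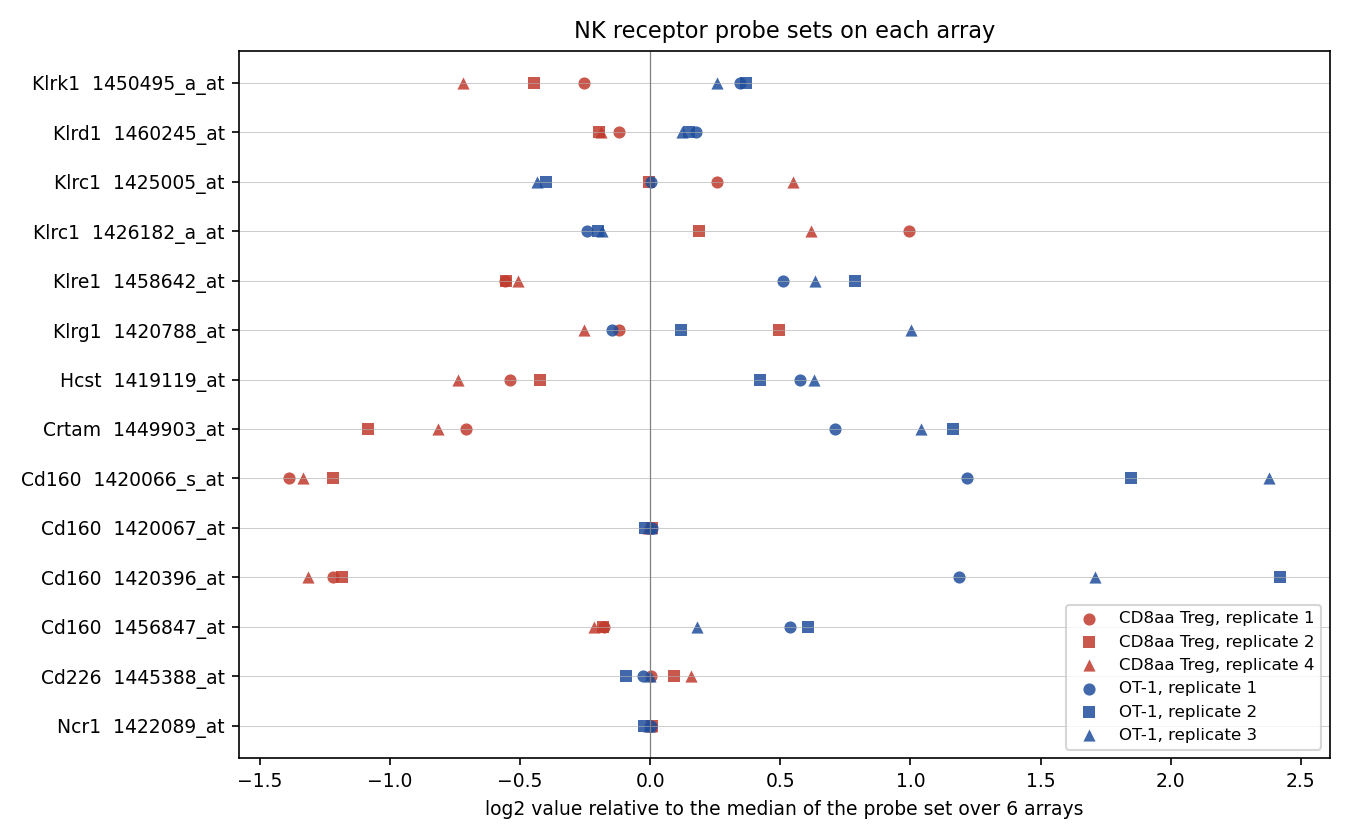
Value of each of the 14 NK receptor probe sets on each array, on a log2 scale relative to the median of the probe set over the 6 arrays; red marks are CD8aa Tregs, blue marks OT-1 T cells, and the shape gives the replicate. The Cd160 probe sets 1420066_s_at and 1420396_at show the widest gaps between groups, Klrc1 runs the other way, and Ncr1 and Cd160 1420067_at hardly vary.

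Promoter windows are shown for members whose values differed in direction or size, so that the start of each gene can be set beside its expression. Windows from the RefSeq sequence table (GRCm38.p6) were used for 6 of the 10 members, with Cd226 left aside. The 250 bases before an annotated start are given for Klre1, Klrk1 and Klrc1, neighbours on chromosome 6. They are also given for Hcst on chromosome 7 and for Cd160 on chromosome 3. For Klre1 and for Cd160, 1 of 2 listed starts is shown. Capitals mark matches, on either strand, to 5 motifs chosen with the expression values known: the Runx core TGTGGT, the T-box half-site TCACAC, the Ets motif AGGAAG, the AP-1 motif TGANTCA and the STAT motif TTCNNNGAA. They occur in 14.0%, 12.3%, 29.5%, 6.75% and 7.02% of 32851 windows of the same length.
Klre1, chr6:129577963-129578212, + strand: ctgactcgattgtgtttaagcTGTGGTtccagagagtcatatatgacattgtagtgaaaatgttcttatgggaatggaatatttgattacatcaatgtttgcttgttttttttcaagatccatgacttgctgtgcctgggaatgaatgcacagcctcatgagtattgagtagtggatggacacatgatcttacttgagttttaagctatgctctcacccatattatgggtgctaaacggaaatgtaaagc
Klrk1, chr6:129623865-129624114, - strand: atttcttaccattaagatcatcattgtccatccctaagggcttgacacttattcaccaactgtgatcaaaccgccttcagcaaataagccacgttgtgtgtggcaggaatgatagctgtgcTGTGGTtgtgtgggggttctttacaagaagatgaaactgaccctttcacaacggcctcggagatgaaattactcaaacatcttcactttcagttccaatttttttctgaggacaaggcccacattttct
Klrc1, chr6:129678974-129679223, - strand: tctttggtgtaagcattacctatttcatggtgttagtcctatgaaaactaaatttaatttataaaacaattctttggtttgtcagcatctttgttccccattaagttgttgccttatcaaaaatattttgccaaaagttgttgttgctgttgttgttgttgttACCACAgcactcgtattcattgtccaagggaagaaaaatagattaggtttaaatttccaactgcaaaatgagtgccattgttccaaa
Hcst, chr7:30419855-30420104, - strand: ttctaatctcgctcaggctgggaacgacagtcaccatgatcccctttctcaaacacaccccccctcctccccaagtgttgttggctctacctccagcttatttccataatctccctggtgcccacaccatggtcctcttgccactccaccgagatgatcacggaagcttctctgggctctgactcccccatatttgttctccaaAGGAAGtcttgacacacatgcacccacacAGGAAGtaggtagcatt
Cd160, chr3:96814522-96814771, - strand: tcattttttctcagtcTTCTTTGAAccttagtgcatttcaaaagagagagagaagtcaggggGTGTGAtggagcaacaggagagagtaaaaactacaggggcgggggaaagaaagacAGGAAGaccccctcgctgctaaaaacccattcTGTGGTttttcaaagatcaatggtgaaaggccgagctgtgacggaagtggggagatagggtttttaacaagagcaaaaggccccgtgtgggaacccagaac

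Each of the windows shown for Klre1, Klrk1 and Klrc1 held 1 match, to the Runx core, 229, 129 and 87 bases upstream of the start. For Klre1 this depends on the start: the window of its other listed start held no Runx match, but a T-box match 42 and an Ets match 28 bases upstream. The Runx core was also in both windows of Ncr1. The Hcst window held 2 matches to the Ets motif, 46 and 17 bases upstream. The Cd160 window shown held a match to each of the Runx, T-box, Ets and STAT motifs, at 101, 188, 133 and 234 bases upstream. The window of its other listed start held Runx, T-box and Ets matches, at 76, 186 and 194 bases upstream, and no STAT match. The Runx match reads TGTGGT in the Klrk1 window and ACCACA, its reverse complement, in the Klrc1 window. Any link between these motifs and the group differences was not tested. A match is a description of these letters and says nothing of a factor's binding.

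Klrk1 (NKG2D; probe set 1450495_a_at) was lower in CD8aa Tregs. It stood at -0.26, -0.45 and -0.72 on CD8aa Treg replicates 1, 2 and 4, and at 0.35, 0.37 and 0.26 on OT-1 replicates 1, 2 and 3. The groups did not overlap, with a gap of 0.51, and the CD8aa Treg arrays were spread more widely (SD 0.23) than the OT-1 arrays (SD 0.059). The difference was -0.80 ± 0.13 (SE, n = 3 per group; 95% interval -1.13 to -0.47; adjusted p = 0.0435), or 1.74-fold. This call is close to the threshold: Klrk1 did not pass without CD8aa Treg replicate 2 (adjusted p = 0.144), OT-1 replicate 1 (0.0635), OT-1 replicate 2 (0.164) or OT-1 replicate 3 (0.127). It did not pass with array medians subtracted (adjusted p = 0.0537) or with robust variances (0.0525), where its difference was -0.81 and -0.80. With the spike-in term, which leaves OT-1 replicate 1 as the only OT-1 array compared, the difference was -0.82.

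Hcst (DAP10; 1419119_at), the adaptor that carries the phosphoinositide 3-kinase signal of NKG2D, was lower as well. It stood at -0.54, -0.42 and -0.74 on CD8aa Treg replicates 1, 2 and 4 and at 0.58, 0.42 and 0.63 on the OT-1 arrays. Every OT-1 array lay above every CD8aa Treg array, with a gap of 0.85. The difference was -1.11 ± 0.10 (95% interval -1.37 to -0.85; adjusted p = 0.0099), or 2.16-fold, and Hcst passed in each of the 6 fits with 1 array left out (highest adjusted p = 0.0494). Hcst is also made by myeloid cells, some of whose transcripts were high on OT-1 replicate 1, as given below. Their part in the Hcst difference was not tested. Hcst on that array lay between the other OT-1 arrays, and the difference without it was -1.09.

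Of the subunits of the Qa-1 receptor, Klrd1 passed and Klrc1 did not, and the difference between them was not tested. Klrd1 (CD94; 1460245_at), the invariant subunit, was lower in CD8aa Tregs by a small and even margin. It stood at -0.12, -0.20 and -0.19 on CD8aa Treg replicates 1, 2 and 4 and at 0.18, 0.15 and 0.12 on the OT-1 arrays. All 6 arrays lay within 0.37 of each other, and the groups were 0.24 apart. The difference was -0.32 ± 0.030 (95% interval -0.40 to -0.24; adjusted p = 0.0104), or 1.25-fold, and without CD8aa Treg replicate 4 (adjusted p = 0.0502) or OT-1 replicate 2 (0.0584) Klrd1 did not pass.

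Klrc1 (NKG2A), the inhibitory chain that pairs with CD94, stood higher in CD8aa Tregs on both probe sets without passing. Probe set 1426182_a_at read 0.99, 0.19 and 0.62 on CD8aa Treg replicates 1, 2 and 4 and -0.24, -0.20 and -0.19 on the OT-1 arrays. The CD8aa Treg arrays were all above but far apart, with replicate 2 nearest the OT-1 arrays. The difference was 0.81 ± 0.21 (95% interval 0.26 to 1.36; adjusted p = 0.147). Probe set 1425005_at read 0.26, -0.0028 and 0.55 on the CD8aa Tregs and 0.0028, -0.40 and -0.43 on the OT-1 cells, so that CD8aa Treg replicate 2 and OT-1 replicate 1 met in the middle. Its difference was 0.54 ± 0.19 (95% interval 0.045 to 1.04; adjusted p = 0.268). As the mean of both probe sets Klrc1 stood at 0.68 (adjusted p = 0.093) and passed as higher in 3 of 15 alternatives. Of the 6 fits with 1 array left out it passed in 1, without CD8aa Treg replicate 2 (0.85, adjusted p = 0.0217). The highest adjusted p of those fits was 0.270. It also passed when only probe sets spanning at least 0.1 entered the fit (adjusted p = 0.0446), and with array weights, whose estimate stopped before convergence. It did not pass with quantile scaling (adjusted p = 0.174) or a replicate block (0.193).

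Klre1 (1458642_at), an NK lectin-like receptor that lies next to Klrd1 in the genome, was lower in CD8aa Tregs and had the lowest adjusted p of the 14. It stood at -0.56, -0.55 and -0.51 on CD8aa Treg replicates 1, 2 and 4 and at 0.51, 0.79 and 0.63 on the OT-1 arrays. The CD8aa Treg arrays were nearly equal (SD 0.028), the OT-1 arrays less so (SD 0.14), and the groups were 1.02 apart. The difference was -1.18 ± 0.076 (95% interval -1.38 to -0.99; adjusted p = 0.00346), or 2.27-fold, and it passed in each of the 6 fits with 1 array left out (-1.25 to -1.11).

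Klrg1 (1420788_at), an inhibitory lectin that binds cadherins and marks effector CD8 T cells, did not separate the groups. It stood at -0.12, 0.50 and -0.25 on CD8aa Treg replicates 1, 2 and 4 and at -0.15, 0.12 and 1.00 on the OT-1 arrays. The arrays of each group overlapped widely, with OT-1 replicate 3 highest. The difference was -0.28 ± 0.38 (adjusted p = 0.858), and its 95% interval of -1.26 to 0.70 leaves room for a change of 2-fold downwards.

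Crtam (1449903_at), an adhesion receptor of activated CD8 T cells and NK cells that binds Cadm1, was lower in CD8aa Tregs. It stood at -0.71, -1.09 and -0.81 on CD8aa Treg replicates 1, 2 and 4 and at 0.71, 1.16 and 1.04 on the OT-1 arrays. The groups were 1.42 apart, and OT-1 replicate 1 was the lowest OT-1 array. The difference was -1.84 ± 0.16 (95% interval -2.26 to -1.43; adjusted p = 0.00853), or 3.58-fold, and Crtam passed in each of the 6 fits with 1 array left out (-1.97 to -1.73; highest adjusted p = 0.0456).

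Cd226 (DNAM-1; 1445388_at), an activating adhesion receptor for Pvr, varied little. It stood at 0.0025, 0.092 and 0.16 on CD8aa Treg replicates 1, 2 and 4 and at -0.029, -0.092 and -0.0025 on the OT-1 arrays. The groups were apart by 0.0051, less than the spread within each. The difference was 0.12 ± 0.049 (95% interval -0.0017 to 0.25; adjusted p = 0.318).

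Cd160, a glycolipid-anchored receptor of the immunoglobulin family that binds Tnfrsf14 (HVEM), showed the largest differences among the 14 probe sets. Probe set 1420066_s_at stood at -1.39, -1.22 and -1.33 on CD8aa Treg replicates 1, 2 and 4 and at 1.22, 1.85 and 2.38 on the OT-1 arrays. Probe set 1420396_at stood at -1.22, -1.18 and -1.31 on the CD8aa Tregs and at 1.18, 2.42 and 1.71 on the OT-1 cells. On both, the CD8aa Treg arrays were close together (SD 0.087 and 0.067) while the OT-1 arrays were spread (SD 0.58 and 0.62), with OT-1 replicate 1 lowest.

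The Cd160 differences on these probe sets were -3.13 ± 0.31 (adjusted p = 0.0119) and -3.01 ± 0.33 (adjusted p = 0.0157), or 8.74-fold and 8.06-fold. Probe set 1456847_at had its CD8aa Treg arrays at -0.18, -0.18 and -0.22 and its OT-1 arrays at 0.54, 0.61 and 0.18, a difference of -0.63 ± 0.12 that did not pass (adjusted p = 0.0701). Probe set 1420067_at spanned 0.027 over the 6 arrays (difference 0.0023, adjusted p = 0.958), although it was designed on the same sequence accession as 1420066_s_at. The probe sets of Cd160 thus ran from -3.13 to 0.0023, and their mean was -1.69 ± 0.13 (adjusted p = 0.00402). Each of the widest pair missed the threshold in 4 of the 6 fits with 1 array left out: 1420066_s_at without CD8aa Treg replicate 1, 2 or 4 or OT-1 replicate 2 (adjusted p = 0.0594, 0.0586, 0.0567 and 0.0695), and 1420396_at without CD8aa Treg replicate 1, 2 or 4 or OT-1 replicate 3 (0.0719, 0.0722, 0.0691 and 0.0686). The mean passed in each of the 6 (highest adjusted p = 0.028).

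Ncr1 (NKp46; 1422089_at), the activating receptor that defines NK cells, spanned 0.031 over the 6 arrays. It stood at -0.0017, 0.0055 and 0.0017 on CD8aa Treg replicates 1, 2 and 4 and at 0.0045, -0.025 and -0.0065 on the OT-1 arrays, with the groups overlapping. The difference was 0.011 ± 0.016 (95% interval -0.030 to 0.052; adjusted p = 0.877). Of all probe sets, 15511 (34.4%) spanned under 0.1 like Ncr1 and Cd160 1420067_at, and centred values do not show whether such a gene was at background in both groups.

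**Figure D2:**
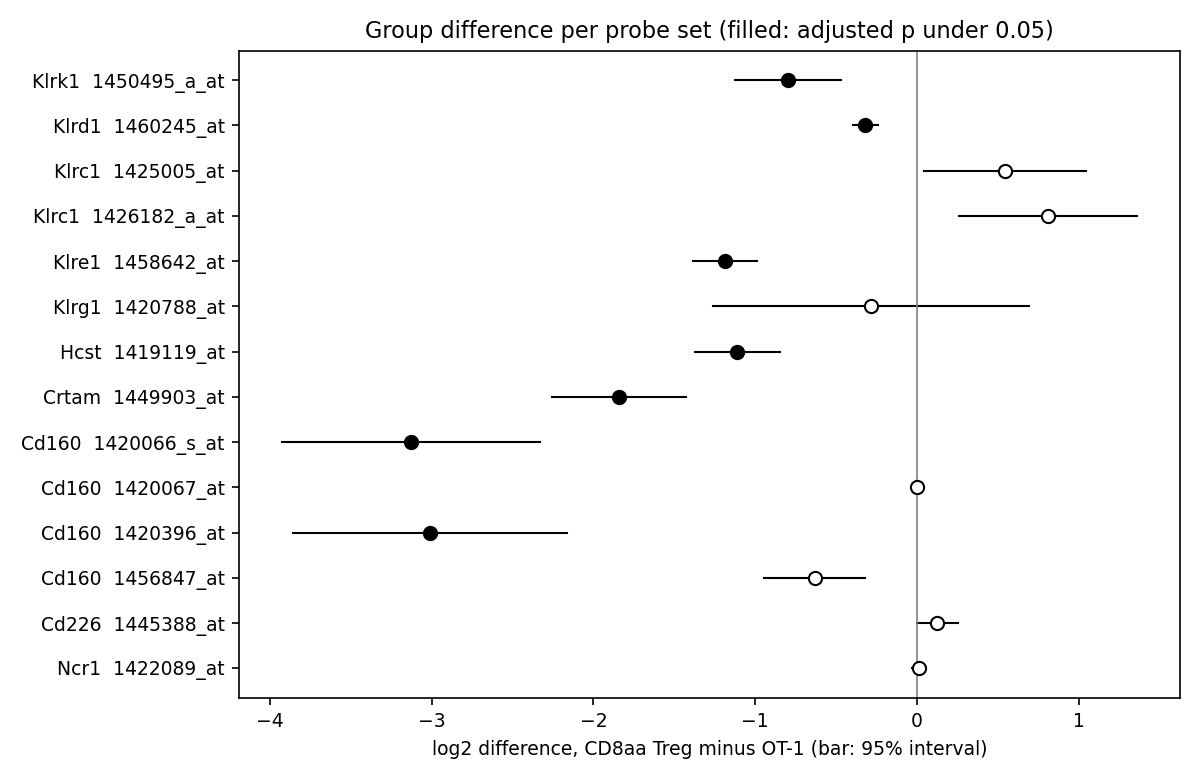
Difference between the groups for each of the 14 probe sets, CD8aa Treg minus OT-1, on a log2 scale with its 95% interval; filled circles passed at an adjusted p under 0.05. The filled circles lie between -3.13 (Cd160) and -0.32 (Klrd1), and both Klrc1 probe sets lie above 0 without passing.

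The probe sets that passed did not rank the OT-1 arrays alike. OT-1 replicate 1 was the lowest OT-1 array for 4 of the 7 (Klre1, Crtam and both Cd160 probe sets), OT-1 replicate 3 for 2 (Klrk1 and Klrd1) and OT-1 replicate 2 for 1 (Hcst). Leaving out the lowest OT-1 array must widen a difference. Without OT-1 replicate 1 the differences of those 4 were -1.25 for Klre1, -1.97 for Crtam, and -3.43 and -3.30 for Cd160. Those of Klrk1, Klrd1 and Hcst were -0.79, -0.30 and -1.09. With any 1 of the 6 arrays left out, 4 to 6 of the 14 probe sets passed.

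**Figure D3:**
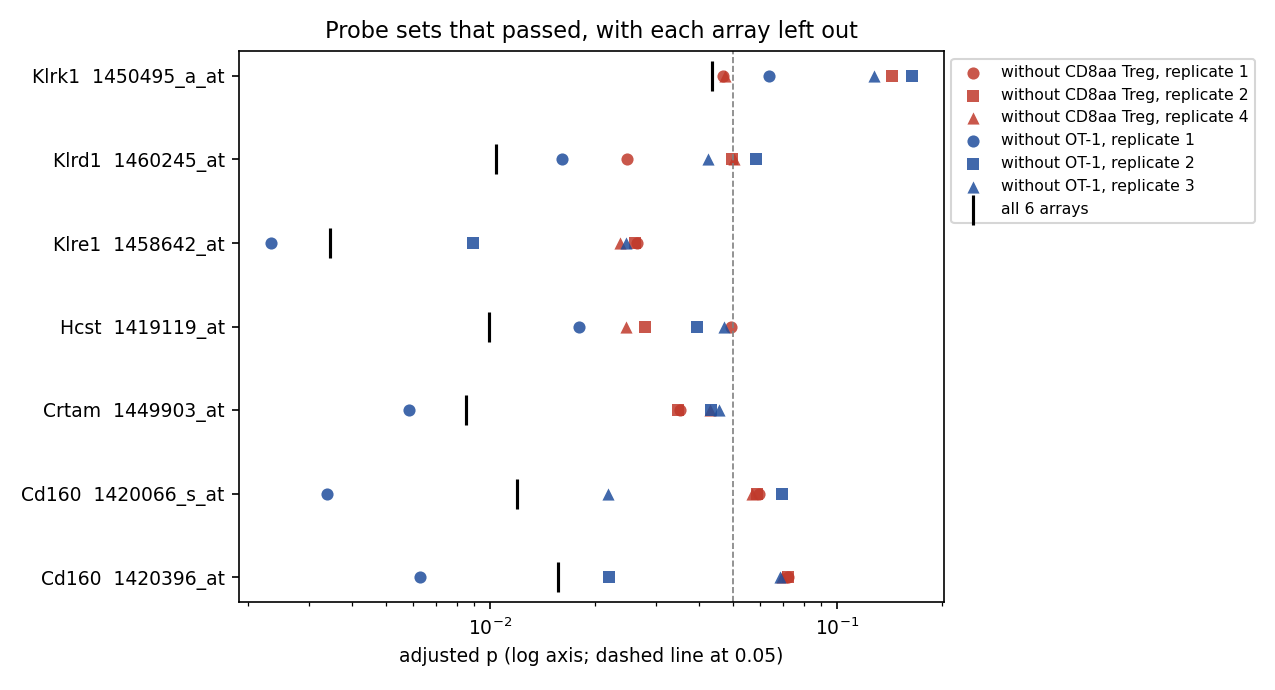
Adjusted p (log axis) of the 7 probe sets that passed, with all 6 arrays (black bar) and with each array left out (marks coloured by group and shaped by replicate); the dashed line is the threshold of 0.05. Klre1, Hcst and Crtam stay left of the line in every such fit, and Klrk1 lies right of it in 4 of 6.

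Position in the genome was compared through the order of genes in RefSeq (GRCm38.p6). The NK gene complex on chromosome 6, taken from Klrb1a to Klra2, holds 48 protein-coding genes, of which 32 had probe sets of a single symbol, 46 in all. Of the 46, 3 passed as lower, against 2.05% of all probe sets, and 0 as higher, against 2.00%. The 3 were those of the adjacent genes Klre1, Klrd1 and Klrk1. The next genes in order are Klrc3, Klrc2 and Klrc1. Klrc3 stood at 0.036 ± 0.036 (adjusted p = 0.777), and Klrc2 (NKG2C), an activating partner of CD94, at 0.44 ± 0.17 (adjusted p = 0.322), with Klrc1 above 0 as given. Klrc2 and Klrc1 are close relatives whose transcripts could share probes, so their values are uncertain. On the other side of Klre1, the autophagy gene Gabarapl1 stood at -0.60 ± 0.12 (adjusted p = 0.0825) and -0.53 ± 0.19 (adjusted p = 0.273). Farther along that side lay the widest differences of the stretch, with the groups overlapping. They were those of Clec2d, at 1.47 ± 0.62 (adjusted p = 0.355), and Cd69, at -1.47 ± 0.87 (adjusted p = 0.562). Without OT-1 replicate 1, 4 of the 46 passed as lower, against 5.80% of all probe sets, and 3 as higher, against 4.80%. Klre1 and Klrd1 passed in that fit and Klrk1 did not (adjusted p = 0.0635), so the adjacent run of 3 was not kept. The stretch was chosen with the values known, and no test of its own was made.

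**Figure D4:**
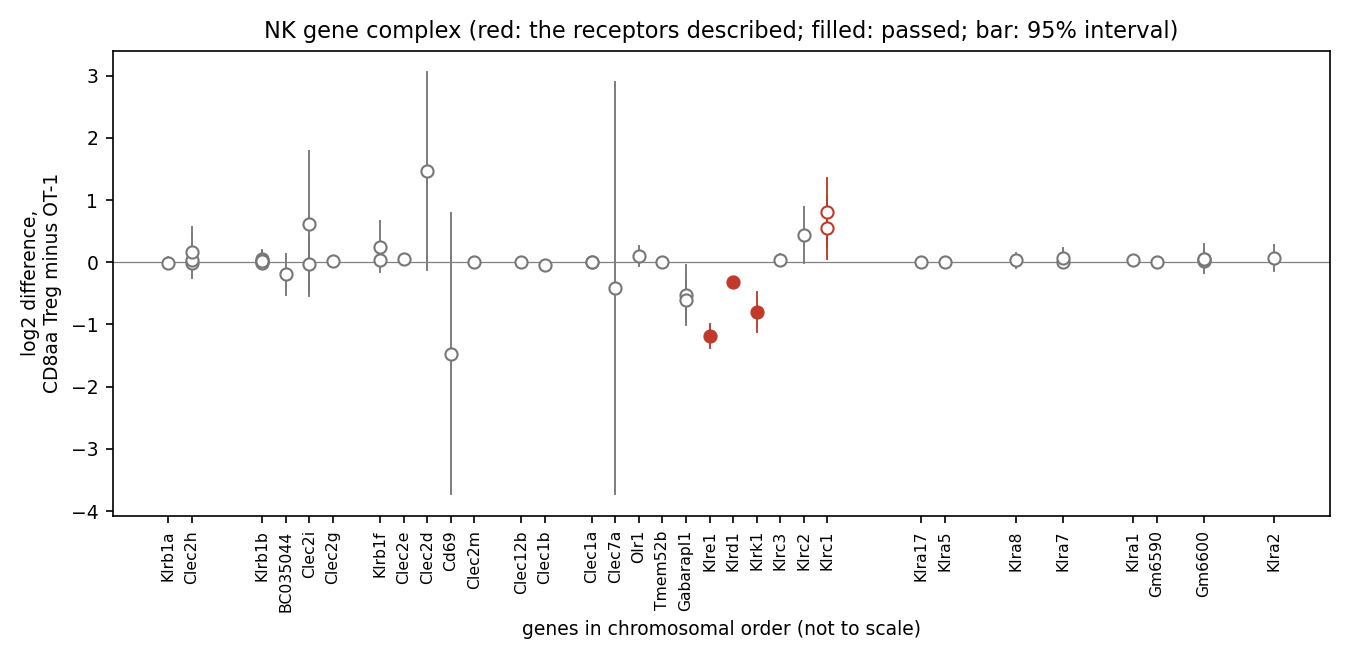
Difference between the groups (CD8aa Treg minus OT-1, log2, with 95% intervals) for the 46 probe sets of the NK gene complex, in gene order and not to scale; red marks the receptors described here and filled circles passed. Klre1, Klrd1 and Klrk1 lie below 0 side by side, Klrc2 and Klrc1 above 0, and the Klrb1 and Klra genes near 0. Clec2d and Cd69 lie farthest from 0, on opposite sides, with wide intervals and without passing.

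Among partner and adaptor genes (list median -1.09), 2 of 7 probe sets (4 genes) passed as lower and 0 as higher, against 2.05% and 2.00% of all. Both were of Cd247, the zeta chain that serves the T cell receptor and some NK receptors. On 1426396_at Cd247 read -0.51, -0.61 and -0.57 on the CD8aa Tregs and 0.51, 0.76 and 0.77 on the OT-1 arrays, a difference of -1.24 ± 0.084 (adjusted p = 0.00399) with no overlap. Of its other probe sets, 1452539_a_at stood at -1.27 (adjusted p = 0.148) and 1426079_at spanned 0.045. Tyrobp (DAP12) and Fcer1g, adaptors of activating receptors in NK and myeloid cells, did not pass, at -1.10 ± 1.01 (adjusted p = 0.762) and -0.66 ± 0.53 (adjusted p = 0.732). Each was high on 1 array: Tyrobp read 3.33 on OT-1 replicate 1 and between -0.015 and 0.014 on the others, and Fcer1g read 1.80 there and between -0.030 and 0.11 on the others.

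OT-1 replicate 1 also stood at 3.35 for the Fc receptor gene Fcgr3, 2.92 for 1 probe set of the M-CSF receptor gene Csf1r, 2.70 for the lysozyme gene Lyz2 and 3.25 for Clec7a, a lectin of myeloid cells. Of the 9 probe sets of the macrophage and monocyte list, 2 stood at least 1 above the probe set's median on this array and 0 on any other, and the median of the list was 0.15 there and -0.015 to 0.0019 elsewhere. On mast cell and basophil genes OT-1 replicates 2 and 3 were the high arrays, with 2 of 4 probe sets at least 1 above the median on each: Cpa3, a mast cell protease gene, read 3.60 and 3.36 there, and Mcpt8, a basophil protease gene, 2.02 and 1.23. These are also the arrays on which Cd160, Crtam and Klre1 were highest. On the NK cell list, 1 of 8 probe sets passed, that of Klre1, as lower, against 2.05% of all probe sets. The median difference of the list was -0.37. The groups were apart with CD8aa Tregs below in 3 of the 8, against 8.54% of all probe sets. These were Klre1, Fcer1g (by only 0.012) and a probe set of Eomes, a T-box factor of NK and CD8 T cells (-0.56, unadjusted p = 0.0471 and adjusted p = 0.302 by limma). On the other Eomes probe set (-0.18, adjusted p = 0.893) and on Nfil3 (0.14, adjusted p = 0.85) the groups overlapped. Ncr1 and Klra8 spanned 0.031 and 0.15. Of the 6 B cell probe sets, 5 spanned under 0.1. The part of myeloid, mast cell and basophil transcripts in the receptor differences was not tested.

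Among 29 probe sets of 18 other NK receptors, 2 passed as lower, against 2.05% of all probe sets, and 3 as higher, against 2.00%. The list median was 0.0070. Slamf7 and Cd244a (2B4), receptors of the SLAM family, were lower by -4.58 ± 0.53 (adjusted p = 0.0188) and -3.91 ± 0.61 (adjusted p = 0.0412). The other Cd244a probe set stood at -4.08 without passing (adjusted p = 0.0731). Slamf6, of the same family, was higher by 2.92 ± 0.11 (adjusted p = 0.000686). Another Slamf6 probe set passed at 2.50 (adjusted p = 0.0175), and a further one stood at -0.029 (adjusted p = 0.89). Cd96, a receptor that shares the ligand Pvr with Cd226, was higher, at 0.52, 0.31 and 0.31 on the CD8aa Tregs and -0.32, -0.31 and -0.46 on the OT-1 arrays, a difference of 0.74 ± 0.079 (adjusted p = 0.0146). No probe set of the Klra or Klrb1 genes on this list passed, and the widest of their differences was 0.25, for Klrb1f.

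Of 25 probe sets of 9 ligand genes (11 spanning under 0.1), 1 passed as higher and 0 as lower, against 2.00% and 2.05% of all. It was that of Tnfrsf14 (HVEM), the ligand of Cd160, which read 1.82, 1.15 and 1.51 on the CD8aa Tregs and -1.15, -1.15 and -1.57 on the OT-1 arrays. The groups were 2.31 apart, in the direction opposite to Cd160. The difference was 2.79 ± 0.22 (adjusted p = 0.00611), or 6.90-fold. Cadm1, the ligand of Crtam, spanned under 0.1 on each of its probe sets. The Pvr probe sets ran from -0.33 to 0.55 without passing. The gene of Qa-1 itself, H2-T23, had no probe set of a single symbol and was not analysed here.

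**Figure D5:**
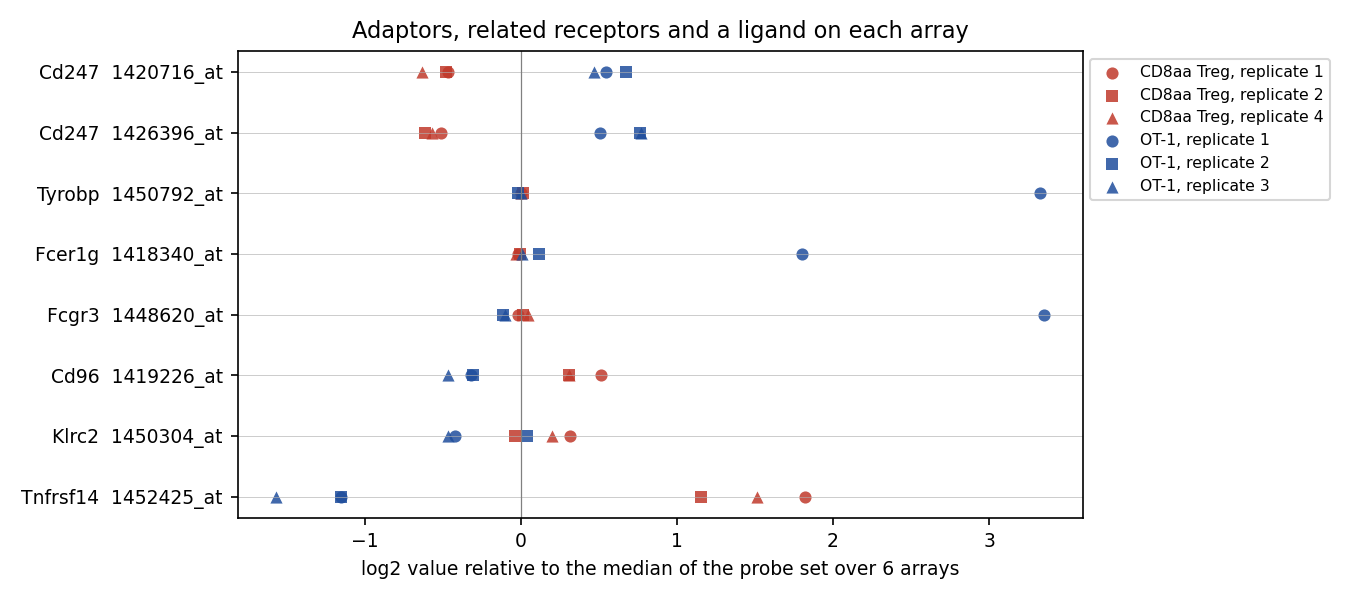
Values of adaptors (Cd247, Tyrobp, Fcer1g), the Fc receptor Fcgr3, the receptors Cd96 and Klrc2 and the Cd160 ligand Tnfrsf14 on each array, on a log2 scale relative to the median of the probe set; colours and shapes as for the receptors. Cd247 is lower and Cd96 and Tnfrsf14 are higher in CD8aa Tregs, while Tyrobp, Fcer1g and Fcgr3 are high on OT-1 replicate 1 alone.

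Of 65 probe sets of 22 signalling genes of these receptors, 1 passed as higher and 1 as lower. That is 1.54% each way, against 2.00% and 2.05% of all probe sets. Pik3cg, a catalytic subunit of phosphoinositide 3-kinase, was higher by 1.38 ± 0.11 (adjusted p = 0.00736) on one probe set and stood at 0.20 on its other. Grb2, an adaptor that binds the tail of Hcst, was lower by -0.58 ± 0.027 (adjusted p = 0.00135) on one and stood at 0.34 on its other. The probe sets of each gene thus disagreed.

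Of 47 probe sets of 20 factor and cytokine receptor genes of NK and cytotoxic lineage, 4 passed as higher and 5 as lower. Of all probe sets, 2.00% and 2.05% did, and the list median was 0.0011. Ets1 and Id2, factors that NK cell development requires, were higher by 2.68 ± 0.30 (adjusted p = 0.0166) and 0.86 ± 0.14 (adjusted p = 0.0435). Zeb2, a transcriptional repressor expressed in terminal effector CD8 T cells and NK cells, was lower by -2.43 ± 0.38 (adjusted p = 0.0412). Ikzf3 (Aiolos) was lower by -1.38 ± 0.16 (adjusted p = 0.0193). Each of these genes also had probe sets that did not pass, from 0.32 to 0.55 for Ets1 and Id2 and from -0.84 to 0.048 for Zeb2 and Ikzf3. Without OT-1 replicate 1 the counts on this list were 6 higher and 13 lower, against 4.80% and 5.80% of all probe sets. Each gene is given at its passed probe set with the largest difference.

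The genes whose 6 values lay nearest to those of each probe set that passed were found by Euclidean distance among 18183 other genes, a measure of both shape and size over 6 arrays. Nearest to Klrk1 were Tmem63a (distance 0.118), Snrpf (0.174) and Pip4k2a (0.175), and nearest to Klrd1 were Acad11 (0.046), Marchf5 (0.0985) and Srf (0.106). Klre1 lay nearest to Cd247 (0.172), Tfb1m (0.201) and Mettl23 (0.214), and Hcst to Pttg1 (0.163), Lxn (0.203) and Epsti1 (0.224). Crtam lay nearest to Arhgef5 (0.196), Ifit3 (0.259) and Irf5 (0.267). For Cd160, probe set 1420066_s_at lay nearest to Erbb3 (0.522), Pck2 (0.558) and Apobr (0.611), and probe set 1420396_at to the chemokine receptor gene Ccr2 (0.504), Cobll1 (0.547) and Plek (0.589). No probe set of the 7 shared a nearest gene with another. Because the distance includes size, and the 7 differ in size, this does not compare their shapes.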

How the data were processed

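The authors deposited 1 table of values for 6 arrays of 45101 probe sets; RMA is the method that the submitters' processing notes name, and the log2 base and the centring of each probe set on its median over the arrays (within 5e-07 of 0) were read from the deposited values. Their widest span, 11.37, is more than a 16-bit scanner can give in natural log units (11.09). Arrays were grouped and numbered by their titles. Leaving out 64 array controls, 45037 probe sets were fitted by group (limma 3.58.1 under R 4.3.3; moderated two-sided test, 0.875 prior degrees of freedom) and adjusted by Benjamini-Hochberg over all of them. Symbols came from the platform annotation, with 34945 probe sets of 1 symbol, 932 of several and 9160 of none; RefSeq (GRCm38.p6) changed 0 of the symbols. The fit was tested on simulated data. The members and lists were chosen with earlier results of these data known.

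The text names the members, up to 4 genes of each list that passed, by size, or the widest where none did, and the 3 genes nearest to each member probe set that passed; other genes (such as Csf1r, Klrc3 or Gabarapl1) were chosen after their values were seen. Only 2 replicate numbers occur in both groups, so the numbers were not taken to pair the arrays. Alternatives were leaving out each array, a replicate block, quantile scaling, median subtraction, array weights, a filter on span, robust variances, the spike-in split, a 2-fold threshold, values per gene, and dropping the _x_at and _s_at probe sets, which can match several transcripts. Because levels were removed, no filter on low level was possible. The small number of arrays limits precision.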

Additional observations from a re-analysis of the deposited data

How the results depend on the processing

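Of the 14 receptor probe sets, 4 to 6 passed when 1 array was left out (4 without CD8aa Treg replicate 2 or 4 or OT-1 replicate 2). With a replicate block, which leaves 1 residual degree of freedom, 0 passed (lowest adjusted p = 0.0609), as did 0 of the 10 genes by mean. CD8aa Treg replicate 4 and OT-1 replicate 3 share a number with no other array. The difference in that fit thus rests on replicates 1 and 2 of each group. The same-numbered arrays deviated from their group means at r = -0.029 and 0.21. With array weights, whose estimate stopped before convergence, 11 passed, including Klrc1 as higher. In the other alternatives, the spike-in term left aside, 5 to 8 did. Of all probe sets tested, 1827 passed, 811 to 4773 with 1 array left out, 229 with the replicate block, 17219 with array weights, 2962 among those spanning at least 0.1, 1044 at least 2-fold, and 1214 and 1036 genes by the mean or the widest probe set. Of the passed probe sets 49.4% were higher, and 37.8% after quantile scaling. The genes by mean that passed with 1 array left out numbered 5 to 6.

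None of the 7 probe sets that passed reversed in any alternative. Klrg1, which did not pass, turned to 0.20 with the replicate block, 0.19 with the spike-in term, and ran from -0.52 to 0.055 with 1 array left out. Cd160 1420067_at turned to -0.0056 with quantile scaling, -0.0045 with median subtraction, -0.0045 with array weights, -0.0073 with the spike-in term, and ran from -0.0055 to 0.0071 with 1 array left out; Ncr1 turned to -0.0026 with the spike-in term. The cause was not tested.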
